A study of Mus musculus with 10 samples.

Results

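Solute carriers are the largest superfamily of membrane transport proteins. They move sugars, amino acids, nucleosides, metals, inorganic ions, vitamins and metabolites across the plasma membrane and across the membranes of mitochondria, lysosomes and the Golgi, mostly by facilitated diffusion or by coupling to a gradient of ions. In microglia and other phagocytes, carriers of the lysosome and phagosome return nucleosides, amino acids, metals and heme from digested material to the cytosol, and carriers of glucose, lactate and glutamine follow the metabolic state of the cell.

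The solute carrier genes described here were chosen by their symbols, which carry a family number, a letter and a member number after Slc, and by their read counts, which had to reach 20 in each of the 4 libraries of the first experiment. Of the 53715 genes counted, 377 had such a symbol, and 178 of these formed the set. A further 195 fell under the limit and 4 were left out by name. The set holds 173 transporters and 5 genes that only share the name of a transporter, among them Slc9a3r1, the scaffold protein NHERF1. The limit used counts of both regions of the first experiment, so a gene close to absent in either region could not enter, and the levels given below for that experiment are a description.

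Microglia came from the midbrain (Mdb) and the striatum (Str) of untreated C57BL/6 mice aged 3 months and were purified with magnetic beads against CD11b, a surface protein of microglia and other myeloid cells. The bulk RNA of each purified suspension was sequenced from the 3′ ends of transcripts and counted per gene. The first experiment (Exp 1, the pilot) had 2 libraries per region and the second (Exp 2) had 2 per region with an undisputed label. In the labels of 2 more libraries of Exp 2, one field names the midbrain and another the striatum, and these libraries entered no comparison. The study describes 2 mice in Exp 1 and 3 in Exp 2, and the labels do not say which libraries came from the same mouse, so p-values measure only the spread between these libraries.

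The assigned libraries held between 575709 and 8463782 counts, and 7 of them between 2820369 and 8463782. The shallowest, Str replicate 3 of Exp 2, had 27 members at or under 3 counts and 74 members with at least 20 counts, whereas the others had 155 to 178 members with at least 20. All 10 microglia markers were detected, and their summed level was 7052 to 17570 CPM (reads of a gene relative to the library total, adjusted with the TMM factors of edgeR). The astrocyte, oligodendrocyte and erythroid markers were also present, with summed levels of 251 to 1759, 6004 to 12210 and 87.3 to 6743 CPM. In the joint fit of both experiments described below, 6 of 10 neutrophil, 4 of 10 monocyte and 7 of 9 border macrophage markers tested were higher in the midbrain, and 2 of 10 microglia markers (Siglech and Olfml3) were lower. Of the T and NK cell markers 1 of 6 tested (Nkg7) was higher, and of the immediate early genes, which also respond to tissue dissociation, 2 of 13 (Fosb and Nr4a1) were, with 6 of 6 and 12 of 13 above 0. In bulk libraries, fewer cells of a type and less RNA per cell cannot be told apart.

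The members had similar summed CPM in both regions. In Exp 1 they summed to 10830 and 10980 CPM in the midbrain against 11080 and 12250 CPM in the striatum. In Exp 2 the sums were 10170 and 9910 CPM against 10700 and 10110 CPM. On this scale the regions overlapped in Exp 2 and the striatum was slightly higher in Exp 1. As a share of the raw counts, the members were lower in the midbrain without overlap in each experiment. They took 1.14% and 1.13% in the midbrain against 1.19% and 1.17% in the striatum in Exp 1. In Exp 2 the shares were 0.92% and 0.949% against 1.06% and 1.07%. The mean level of a member over the 8 libraries ranged from 3.83 to 572.5 CPM with a median of 29.8 CPM, 28 members lay above 100 CPM, and the 10 highest members held 36.5% of the total. The exons of 55 members overlap those of another annotated gene. Counting did not use strand and left out reads that fell on more than one gene, so the levels of these members are uncertain.

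Mitochondrial carriers were the largest class, with 30 members and 21.0% to 28.2% of the summed CPM in a library. Amino acid and peptide transporters followed with 25 members and 15.8% to 18.7%, and the transporters of metals and heme with 25 members and 10.6% to 14.0%. The plot of class shares shows the 13 classes in each library. Mitochondrial carriers took more of the total in every library of Exp 2 (26.7% to 28.2%) than in any of Exp 1 (21.0% to 23.2%), a separation between the experiments and not between the regions.

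**Figure D1:**
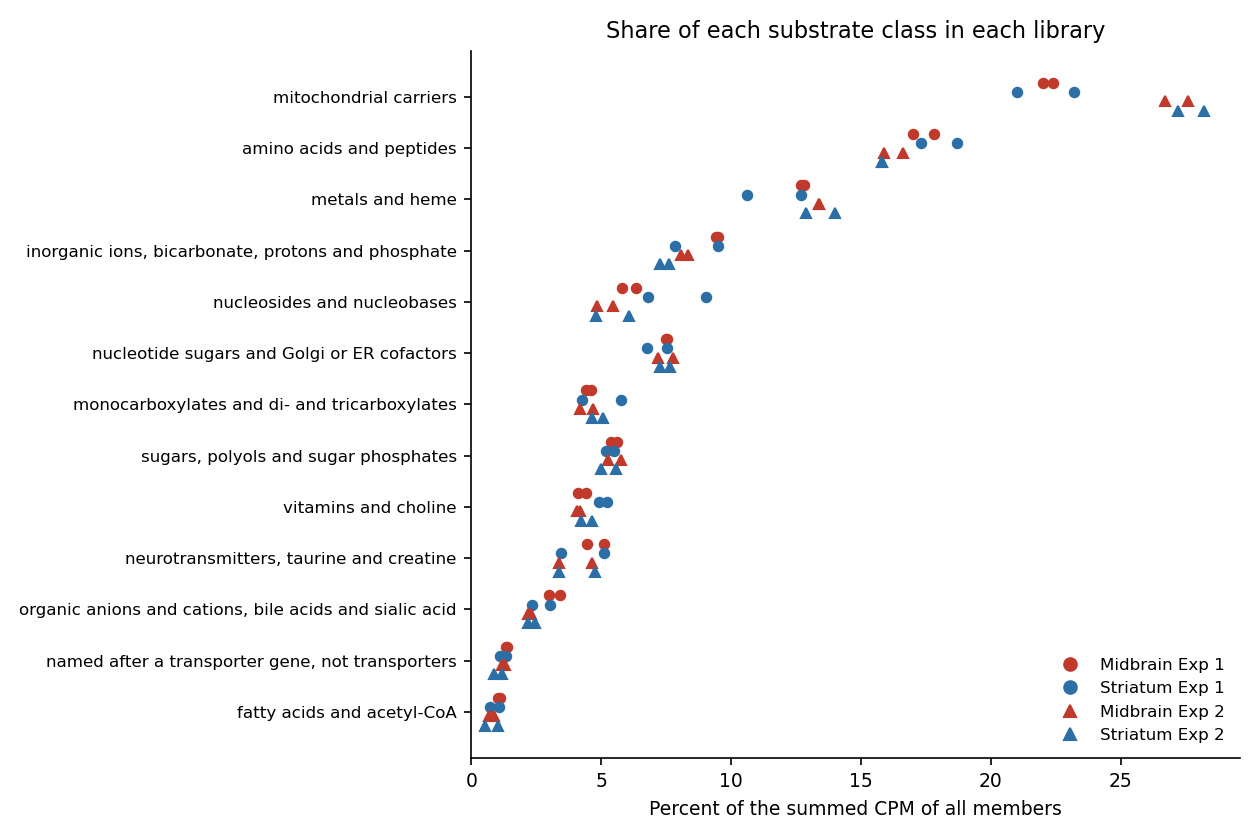
Share of each substrate class (percent of the summed CPM of the 178 members, x axis) in each of the 8 assigned libraries, with 1 point per library, midbrain in red and striatum in blue, circles for Exp 1 and triangles for Exp 2. Mitochondrial carriers were highest in every library, at 21.0% to 28.2%, and the experiments lie further apart than the regions in this class.

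Relative to exon length, the highest members were the mitochondrial ADP/ATP carrier Slc25a5 at 347.8 CPM per kb of exon, its relative Slc25a4 at 143.8 and Slc11a1 at 131.3 CPM per kb. Since reads came from the 3′ ends, this scale understates long transcripts. Slc11a1, the NRAMP1 metal transporter of the phagosome membrane, had 436.7 and 460.5 CPM in the midbrain and 451.9 and 455.6 CPM in the Exp 1 striatum, and 519.5 and 486.9 CPM against 575.9 and 504.1 CPM in Exp 2. Its joint log2 change of midbrain over striatum was -0.05 (95% interval -0.31 to 0.20). Slc3a2, the heavy chain CD98 that carries several amino acid exchangers to the plasma membrane, stood at 114.5 CPM per kb. It had 409.4 and 443.3 CPM in the midbrain against 405.5 and 486.0 CPM in the striatum in Exp 1, and 382.6 and 358.7 against 408.4 and 339.3 CPM in Exp 2, overlapping in both experiments, with a joint log2 change of -0.04 (-0.30 to 0.23).

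The comparison of the study, midbrain against striatum, was first made within each experiment with limma-voom. A gene was called where its unadjusted p lay under 0.01. In Exp 1, 3 of the 178 members were called higher in the midbrain (1.69%, against 2.09% of the 14972 genes tested) and 0 lower (against 0.548%), together 1.69% against 2.64% in either direction. These were Slc2a6, Slc25a10 and Slc14a1. In Exp 2, 1 member was called higher (0.562% against 2.88% of 13486 genes), again Slc2a6, and 1 lower (0.562% against 0.593%), Slc25a45, together 1.12% against 3.47%. Called in both experiments with the same direction were 1 member higher (against 1.18% of 13210 genes) and 0 lower (against 0.053%). At a looser unadjusted p under 0.05, 19 members passed in Exp 1 (10.7% against 10.9%) and 12 in Exp 2 (6.74% against 10.6%). After Benjamini-Hochberg adjustment over all genes, 0 members passed 0.05 in Exp 1 (against 0.00668% of genes) and 0 in Exp 2 (against 0.356%).

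The count in Exp 1 rested on single libraries. Without Str replicate 1 it was 44 members, 24 higher and 20 lower, while 16.8% of all genes tested were then called. Without Str replicate 2 it was 4, without Mdb replicate 2 it was 1, and without Mdb replicate 1 it was 0, with 4.22%, 1.35% and 0.749% of all genes called. In Exp 2 the count was 3 without Mdb replicate 1, 7 without Mdb replicate 3, 9 without Str replicate 1 and 5 without Str replicate 3, with 3.24%, 10.1%, 6.13% and 2.91% of all genes called. Where a region kept 1 library, its spread was taken from the other region.

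The 8 libraries were then fitted jointly, with a term for the experiment, and the 14053 genes tested were held to an adjusted p under 0.05. This called 0 of 178 members, against 1.06% of all genes, 0.975% higher in the midbrain and 0.0854% lower. The share over all genes itself rested on single libraries. It was 0% without Mdb replicate 1 of Exp 1 or Str replicate 1 of Exp 2, 0.0214% without Str replicate 3 of Exp 2, 0.0661% without Str replicate 1 of Exp 1, 0.584% without Mdb replicate 2 of Exp 1 and 1.73% without Mdb replicate 3 of Exp 2, and 0% with both disputed libraries placed by their titles. Each joint call by limma named here, of marker and partner genes too, was thus lost in the settings with 0%. At an unadjusted p under 0.05, 26 members passed, 15 higher and 11 lower, which is 14.6% of the members against 14.6% of all genes. With other tools, edgeR's quasi-likelihood test called 1 member (Slc2a6), with 1.69% of all genes called, and DESeq2 called 3 (Slc2a6 and Slc15a2 higher, Slc25a45 lower), with 3.94% of all genes called.

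The changes of the members were small. The joint log2 change ranged from -0.78 (Slc33a1) to 1.65 (Slc2a6) with a median of 0.02, beside 0.04 over all genes tested. Counts of genes above or below 0 given below had no test. The joint change lay above 0 for 95 of the 178 members (53.4%). It was under 1.5-fold in either direction for 155 members (87.1%, against 80% of all genes), and its 95% interval lay within 2-fold in either direction for 139 members (78.1%, against 57%). The median standard error was 0.22 for members and 0.27 for all genes; members had to reach the count limit, other genes did not. For 139 members, a regional difference over 2-fold thus lay outside the 95% interval, and for the other 39 it did not.

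Slc2a6 encodes GLUT6, a hexose transporter of the lysosome membrane. It is annotated at chr2:27021363-27027998 on the minus strand of GRCm38 and its exons overlap no other gene. It had 18.4 and 12.95 CPM (109 and 73 counts) in the midbrain of Exp 1 and 5.09 and 6.81 CPM (27 and 55 counts) in the striatum. In Exp 2 it had 35.2 and 24.8 CPM (165 and 106 counts) in the midbrain and 10.0 and 1.65 CPM (28 counts and 1 count) in the striatum. All midbrain libraries lay above all striatum libraries, also across the experiments. The group means were 15.7 ± 3.83 against 5.95 ± 1.21 CPM in Exp 1 and 30.0 ± 7.41 against 5.84 ± 5.94 CPM in Exp 2 (mean ± SD, n = 2).

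The log2 change of Slc2a6 was 1.37 ± 0.36 (SE) in Exp 1 and 2.11 ± 0.64 in Exp 2, with unadjusted p-values of 0.00401 and 0.00725 from limma. Jointly it was 1.65 ± 0.35, or 3.13-fold (95% interval of the log2 change 0.88 to 2.41), with an adjusted p of 0.0512, just short of the threshold. Slc2a6 passed the joint threshold in 5 of 8 alternative settings. With both disputed libraries placed by file name, its change was 1.49 (adjusted p = 0.0254 from limma). The adjusted p ranged from 0.000123 with DESeq2 to 0.771 with both disputed libraries placed by their titles, where the change was 1.204, and from 0.0471 to 0.188 when each library was left out in turn. The call in Exp 1 was lost without Mdb replicate 1 (unadjusted p = 0.0492 from limma) and the call in Exp 2 without Mdb replicate 1 (0.0165) or Str replicate 3 (0.0294). The log2 change in Exp 2 was 3.49 without Str replicate 1 and 1.51 without Str replicate 3, the library with 1 count. The change in Exp 2 exceeded that in Exp 1 by 0.69 with a 95% interval of -0.95 to 2.33.

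The levels of Slc2a6 ran beside those of markers of other leukocytes. The 10 neutrophil markers summed to 1218 and 854 CPM in the midbrain against 447 and 354 CPM in the Exp 1 striatum, and to 6343 and 3950 against 558 and 560 CPM in Exp 2. The 10 monocyte markers summed to 460 and 381 against 161 and 201 CPM, and to 3443 and 852 against 249 and 166 CPM. The 10 border macrophage markers summed to 2231 and 1866 against 961 and 1394 CPM, and to 2616 and 3065 against 700 and 591 CPM. No marker of these lists was at 0 in all libraries. The 10 T and NK cell markers summed to 96.4 and 85.2 against 24.0 and 46.8 CPM, and to 272.9 and 142.5 against 47.0 and 9.88 CPM. Mdb replicate 1 of Exp 2 was highest in Slc2a6 and in the neutrophil, monocyte and T and NK cell sums. The border macrophage sum was highest in Mdb replicate 3 of Exp 2. The 13 immediate early genes summed to 19100 and 22510 against 13880 and 24340 CPM in Exp 1, which overlap, and to 24630 and 22500 against 11890 and 11130 CPM in Exp 2. The part of these cells and genes in the difference of Slc2a6 was not tested.

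Slc25a45 encodes a carrier of the mitochondrial inner membrane and is annotated at chr19:5877808-5885766 on the plus strand. It had 119.0 and 88.9 CPM in the midbrain of Exp 1 against 120.0 and 208.1 CPM in the striatum, and 79.9 and 91.5 CPM against 149.9 and 159.8 CPM in Exp 2. The striatum was higher in both experiments, narrowly in Exp 1, where Mdb replicate 1 and Str replicate 1 differed by little. The log2 change was -0.60 ± 0.27 in Exp 1 (unadjusted p = 0.0512 from limma) and -0.91 ± 0.27 in Exp 2 (0.00599). Jointly it was -0.70 ± 0.19, or 1.63-fold lower in the midbrain, with an adjusted p of 0.103. This adjusted p ranged from 0.0227 with DESeq2 to 0.772 with the disputed libraries placed by title, and from 0.0592 to 0.257 when each library was left out. The call in Exp 2 was kept only without Mdb replicate 3. Microglia markers also tended lower in the midbrain, with a median joint log2 change of -0.66 and 10 of 10 below 0.

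**Figure D2:**
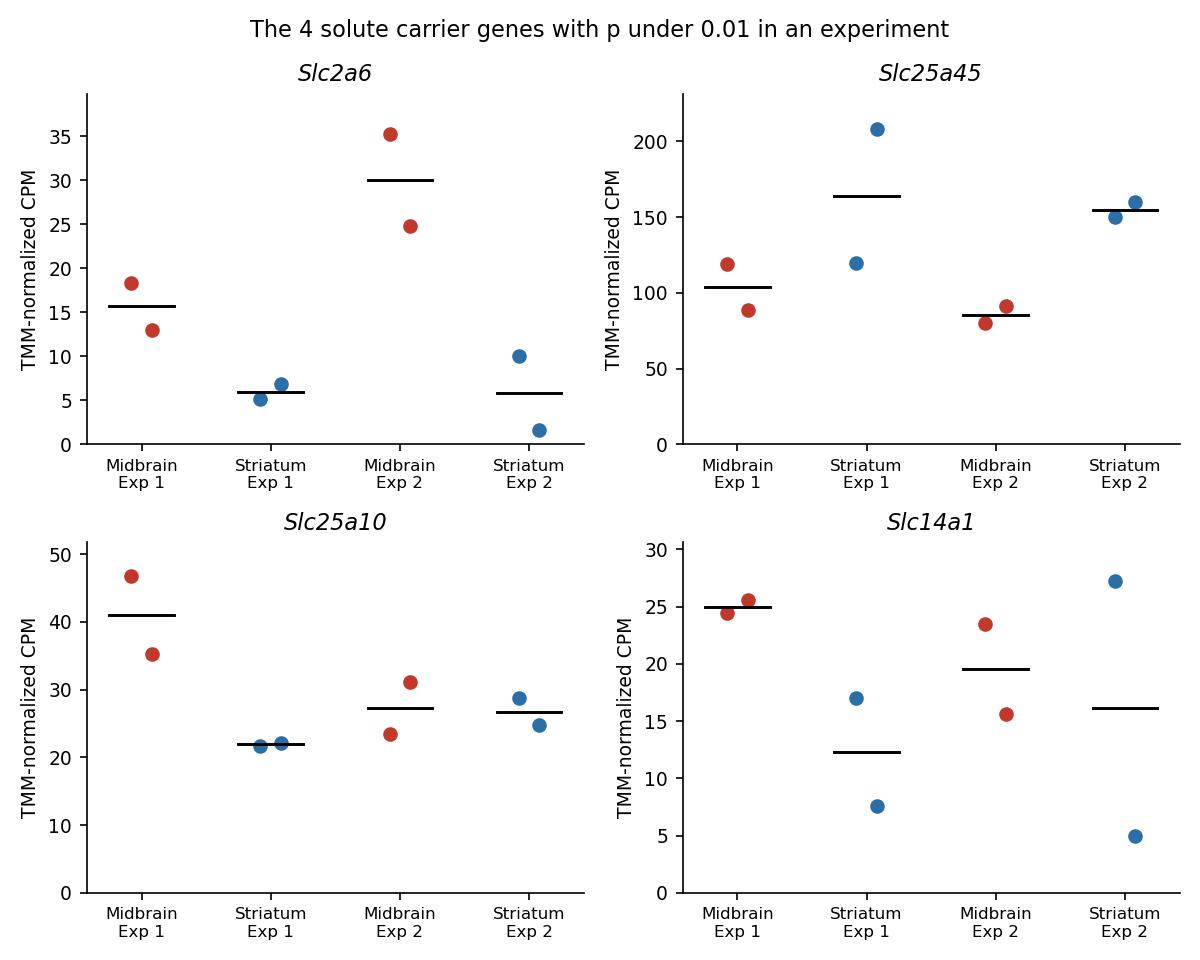
TMM-normalized CPM (y axis, from 0) of Slc2a6, Slc25a45, Slc25a10 and Slc14a1 in the 8 assigned libraries, with 1 point per library and a black line at the mean of each group (n = 2). Slc2a6 lay at 12.95 to 35.2 CPM in the midbrain and 1.65 to 10.0 CPM in the striatum, whereas Slc25a10 and Slc14a1 overlapped between regions in Exp 2.

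The other members called in Exp 1 were not called in Exp 2. Slc25a10, the mitochondrial dicarboxylate carrier that exchanges malate and succinate for phosphate, had 46.7 and 35.3 CPM in the midbrain against 21.7 and 22.2 CPM in the Exp 1 striatum, and 23.5 and 31.1 against 28.7 and 24.7 CPM in Exp 2. Its log2 change was 0.91 ± 0.24 in Exp 1 and -0.10 ± 0.37 in Exp 2. The difference between the experiments was -1.05 (95% interval -1.96 to -0.13) and had an adjusted p of 0.86. Slc14a1, the urea transporter UT-B, grouped here with organic ion carriers, had 24.4 and 25.6 CPM in the midbrain against 16.98 and 7.55 CPM in the Exp 1 striatum, and 23.5 and 15.7 against 27.3 and 4.94 CPM in Exp 2. Its log2 change was 1.24 ± 0.36 and 0.02 ± 0.57. In Exp 2 this change was 1.65 without Str replicate 1 and -0.54 without Str replicate 3. Slc14a1 differed between the experiments by -1.25 (95% interval -2.94 to 0.45) and had a joint change of 0.92 (0.08 to 1.76, adjusted p = 0.30). It was no longer called in Exp 1 without Mdb replicate 1, Mdb replicate 2 or Str replicate 2, nor with DESeq2 (unadjusted p = 0.0138), edgeR (0.0207) or the replicate block (0.0101). Slc25a10 was no longer called without either midbrain library.

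The promoters of Slc2a6 and Slc25a45 are shown because these were the members with the smallest joint p in each direction. They are the 250 bases before the transcription start in RefSeq on GRCm38.p6, written 5′ to 3′ on the strand of the gene, at chr2:27027999-27028248 (minus) and chr19:5877572-5877821 (plus). Capitals mark matches of the searched motifs on either strand.
Slc2a6: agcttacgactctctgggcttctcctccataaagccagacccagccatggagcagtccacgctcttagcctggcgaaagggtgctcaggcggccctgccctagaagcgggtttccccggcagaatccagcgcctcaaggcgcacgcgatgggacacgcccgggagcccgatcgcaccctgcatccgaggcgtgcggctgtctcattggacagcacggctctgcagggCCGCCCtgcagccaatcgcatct
Slc25a45: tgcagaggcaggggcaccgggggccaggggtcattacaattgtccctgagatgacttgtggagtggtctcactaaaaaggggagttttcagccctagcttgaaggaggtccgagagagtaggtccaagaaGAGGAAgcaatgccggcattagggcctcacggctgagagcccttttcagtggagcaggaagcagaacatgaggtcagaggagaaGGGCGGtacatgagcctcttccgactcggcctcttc

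The searched motifs were a GC box (GGGCGG), the core bound by PU.1 (GAGGAA), an AP-1 site (TGANTCA) and an E-box (CACGTG). The Slc2a6 promoter held 1 GC box and the Slc25a45 promoter 1 GC box and 1 PU.1 core, and these matches do not overlap each other. Over the same 250 bases, a GC box was found in 62.2% of 180 promoters of 133 members with an entry and in 32.7% of all 32851 promoters, and the PU.1 core in 17.8% and 23.3%. The AP-1 site was in 4.44% and 6.75%, and the E-box in 11.1% and 6.02%. Members had to reach the count limit, whereas the 32851 promoters were not chosen by counts. These shares thus do not compare solute carriers with other expressed genes. A match is a description of the sequence and not a bound site.

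No sugar transporter other than Slc2a6 was called in Exp 1 or in Exp 2, and 0 were called jointly. Slc2a1, the glucose transporter GLUT1, had the highest CPM of the 14 members of this class. It had 176.0 and 168.2 CPM in the midbrain against 160.6 and 163.8 CPM in the Exp 1 striatum, and 156.3 and 94.4 against 77.5 and 67.5 CPM in Exp 2. The midbrain was higher in all libraries of both experiments, with a joint log2 change of 0.34 (95% interval -0.06 to 0.74) and an adjusted p of 0.42. Slc2a1 is also a marker of brain endothelium, and the 10 endothelial markers, with Slc2a1 among them, summed to 484 and 551 CPM against 566 and 567 CPM in Exp 1 and to 304 and 167 against 136 and 143 CPM in Exp 2. Slc2a8 and Slc2a3 had joint log2 changes of -0.04 and 0.32, and the class had a median of -0.04. Among 8 enzymes of hexose use, such as hexokinases, phosphofructokinases and pyruvate kinase, 0 passed the joint test and 5 lay above 0.

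Among transporters of monocarboxylates and of di- and tricarboxylates, 6 of 8 lay above 0 in the joint fit and the class median was 0.32, the highest of the 13 classes. Slc16a3, the lactate exporter MCT4, had 70.3 and 53.2 CPM in the midbrain against 43.4 and 36.4 CPM in Exp 1, and 66.0 and 59.8 against 49.5 and 39.5 CPM in Exp 2. The regions did not overlap in either experiment, and the joint log2 change was 0.58 ± 0.18 with an adjusted p of 0.149. Slc16a1 (MCT1), also known from brain endothelium, had a joint log2 change of 0.84 but 0.32 in Exp 2. Slc16a6 (MCT7), at 346.9 CPM the highest member of the class and with exons that overlap Amz2 and Arsg, went the other way, with 296.3 and 298.2 CPM in the midbrain against 307.9 and 568.6 CPM in Exp 1 and 238.7 and 303.6 against 358.2 and 403.6 CPM in Exp 2, and a joint log2 change of -0.48 (adjusted p = 0.23). Of 6 other genes of lactate and pyruvate handling, 1 passed the joint test. This was Emb, embigin, a chaperone of MCT2 at the cell surface, which was higher in the midbrain by 1.61 on the log2 scale (adjusted p = 0.0455). Emb had 21.9 and 19.7 CPM against 10.0 and 8.54 CPM in Exp 1, and 124.9 and 56.3 against 20.1 and 21.4 CPM in Exp 2. Like the monocyte sum, it was highest in Mdb replicate 1 of Exp 2. The part of other leukocytes in its change was not tested. Bsg, basigin, the chaperone of MCT1 and MCT4, had a log2 change of 0.03.

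The transporters of vitamins and choline lay at the other end, with a median of -0.30 and 6 of 8 below 0. Slc46a1, the proton-coupled folate transporter, which also carries heme, had 59.0 and 72.7 CPM in the midbrain against 90.8 and 91.4 CPM in Exp 1, and 43.6 and 55.6 against 74.2 and 100.5 CPM in Exp 2. The regions did not overlap, and the joint log2 change was -0.55 (95% interval -0.91 to -0.19, adjusted p = 0.144). The lysosomal Slc46a3, the highest of this class at 131.1 CPM, was likewise separated in both experiments, with a log2 change of -0.44. The reduced folate carrier Slc19a1, the vitamin C transporter Slc23a2 and the choline transporter-like Slc44a2 had changes of -0.34, -0.27 and -0.34. The members above 0 were Slc5a6, a vitamin transporter, at 0.02 and the choline transporter Slc44a1 at 0.63. Slc44a1 was lowest in Str replicate 2 of Exp 1 (41.2 CPM) and Str replicate 3 of Exp 2 (26.4 CPM).

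**Figure D3:**
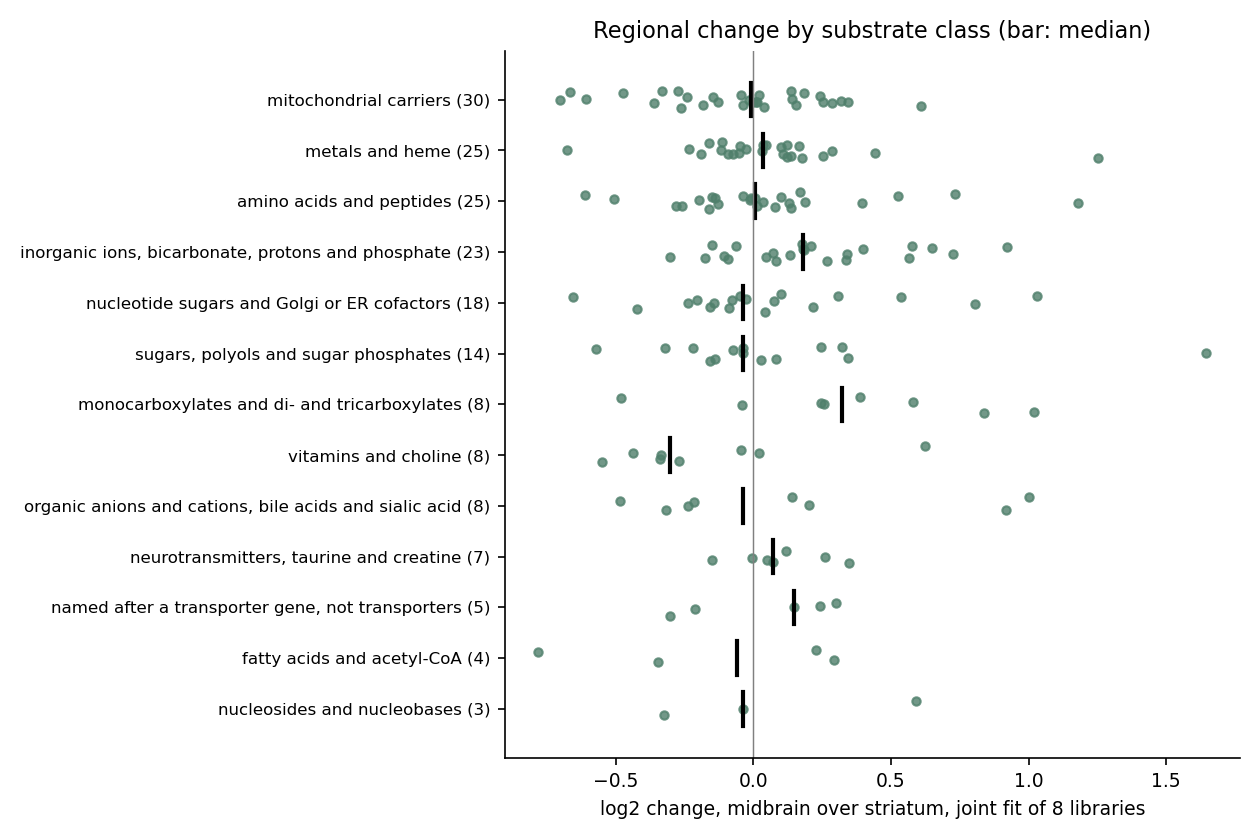
Joint log2 change of midbrain over striatum (x axis) for each of the 178 members by substrate class, with the number of members in brackets, 1 point per gene and a black bar at the class median. Class medians ran from -0.30 for vitamins and choline to 0.32 for monocarboxylates, and Slc2a6 at 1.65 is the point furthest from 0.

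Amino acid and peptide transporters had a median of 0.00 with 13 of 25 above 0. Slc15a2, the peptide transporter PEPT2, had 8.26 and 9.58 CPM in the midbrain against 5.66 and 3.59 CPM in Exp 1, and 12.8 and 14.7 against 7.17 and 1.65 CPM in Exp 2, which did not overlap. The 1.65 CPM of Str replicate 3 of Exp 2 is the level of 1 count in that library, under the floor of 3 counts. The joint log2 change of Slc15a2 was 1.18 ± 0.33 with an adjusted p of 0.122, and 0.039 with DESeq2, within a range of 0.039 to 0.885 over the alternatives. Slc1a5, the glutamine transporter ASCT2, was higher in all midbrain libraries of each experiment, at 19.2 to 23.9 CPM against 9.62 to 17.9 CPM, with a change of 0.73. The lysosomal amino acid transporter Slc36a1 and the arginine and lysine exchanger Slc7a7 were lower in all midbrain libraries of each experiment, with joint log2 changes of -0.51 and -0.61. Among 8 genes of amino acid sensing, such as Atf4, Mtor and Sesn2, 0 passed the joint test. Of 8 genes of glutathione and cystine use, Gpx1, a glutathione peroxidase, was higher in the midbrain by 0.77 (adjusted p = 0.032) and the other 7 did not pass. Gpx1 was highest in Mdb replicate 1 of Exp 2 (1956 CPM), and the part of other leukocytes in its change was not tested.

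Transporters of metals and heme had a median of 0.04. Slc40a1, the iron exporter ferroportin, had 23.6 and 31.8 CPM in the midbrain against 43.0 and 33.9 CPM in Exp 1, and 10.3 and 32.9 against 39.4 and 41.2 CPM in Exp 2. It was lower in the midbrain throughout, with a joint log2 change of -0.68 (95% interval -1.37 to 0.01). The heme transporter Slc48a1 of the lysosome, at 190.3 CPM on average, changed by 0.16 and the iron and manganese transporter Slc11a2 by 0.03. Slc30a10, a manganese exporter and with 22 counts in its lowest pilot library the member closest to the limit together with Slc36a4, had the highest change of the class at 1.25, but 0 counts in Str replicate 3 of Exp 2. Of 15 genes of metal and heme handling, 13 lay above 0 and 1 passed the joint test. This was Cp, ceruloplasmin, the ferroxidase that works with ferroportin, which was higher by 1.57 (adjusted p = 0.031). Cp was highest in Mdb replicate 1 of Exp 2 (49.3 CPM), and the part of other leukocytes in its change was not tested. Ferritin heavy chain Fth1 and metallothionein Mt1 had changes of 0.65 and 0.76 with adjusted p-values of 0.079 and 0.103.

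Mitochondrial carriers had a median of -0.01, with 14 of 30 above 0. Slc25a5 and Slc25a4, which exchange ADP for ATP, changed by -0.26 and -0.15, and the phosphate carrier Slc25a3 by 0.24. Slc25a11, the oxoglutarate and malate carrier, had 164.5 and 176.7 CPM in the midbrain against 198.7 and 250.3 CPM in Exp 1, and 217.4 and 271.4 against 286.1 and 313.0 CPM in Exp 2, a separation in each experiment with a joint log2 change of -0.33. Slc25a35 and Slc25a26, the carrier of S-adenosylmethionine, were also lower in each experiment. Slc25a12, an aspartate and glutamate carrier, and Slc25a39, a carrier linked to glutathione import, were higher in each, by 0.32 and 0.34.

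Inorganic ion transporters lay above 0 for 17 of 23 members, beside 53.4% of all members, with a median of 0.18. Slc4a2, Slc26a6, Slc26a11 and Slc26a10, all anion transporters, were higher in all midbrain libraries of each experiment, with joint log2 changes of 0.34, 0.56, 0.34 and 0.57. The exons of Slc26a10 overlap B4galnt1. The endosomal sodium and proton exchanger Slc9a9, at 113.8 CPM the highest of the class, changed by 0.18. Slc29a3, the lysosomal nucleoside transporter ENT3 and the second most abundant member by CPM at 566.6, had 562.8 and 550.1 CPM in the midbrain against 658.5 and 998.4 CPM in Exp 1, and 393.9 and 453.8 against 422.4 and 492.5 CPM in Exp 2, with a joint log2 change of -0.33 (adjusted p = 0.346). The remaining classes held joint changes from -0.78 (Slc33a1) to 1.03 (Slc35e4). Their most abundant members had joint changes of at most 0.30. These were -0.00 for the taurine transporter Slc6a6, -0.08 for the Golgi transporter Slc35c2, 0.14 for Slc22a17, a receptor for lipocalin 2, 0.29 for the fatty acid transport protein Slc27a4 and 0.30 for Slc9a3r1. Among 10 organic anion carriers and other transporters without a family number, such as Slco2b1 and Xpr1, 0 passed the joint test.

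In all, 12 members were higher in every midbrain library than in every striatum library within each experiment (6.74%, against 8.28% of all genes tested) and 13 were lower (7.3%, against 6.04%). The higher ones were Slc2a6, Slc15a2, Slc1a5, Slc16a3, Slc26a10, Slc26a6, Slc2a1, Slc25a39, Slc4a2, Slc26a11, Slc25a12 and Slc9a3r1. The lower ones were Slc25a45, Slc40a1, Slc25a35, Slc7a7, Slc46a1, Slc36a1, Slc16a6, Slc25a26, Slc46a3, Slc35e2, Slc25a11, Slc10a3 and Slc17a5, the sialic acid exporter of the lysosome. Both shares are near those of all genes.

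The experiments shared little of the pattern across members. The log2 changes of Exp 1 and Exp 2 had the same sign for 97 of 178 members (54.5%, against 59.5% of all genes tested in both). Pearson's r across members was 0.137 and Spearman's rho 0.131, beside 0.342 and 0.276 across all genes, where genes of a library share its depth and cell composition and are not independent replicates. The difference between the experiments passed an adjusted p of 0.05 for 0 members (against 0% of genes) and an unadjusted p of 0.05 for 10 members (5.62%, against 5.49%), among them Slc25a18, Slc7a2, Slc24a3, Slc39a11, Slc1a4, Slc7a1, Slc16a10 and Slc4a4 beside Slc25a10.

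Several transporters known from astrocytes were among these. Slc4a4, the sodium bicarbonate cotransporter NBCe1, had 31.2 and 47.0 CPM in the midbrain against 43.0 and 5.07 CPM in the Exp 1 striatum, and 42.9 and 42.3 against 90.7 and 24.7 CPM in Exp 2. In each experiment 1 striatum library stood apart, Str replicate 2 of Exp 1, which was low, and Str replicate 1 of Exp 2, which was high. Of 8 such transporters (among them Slc6a11, Slc7a10, Slc14a1, Slc25a18, Slc38a3 and Slc39a12), 8 lay above 0 in Exp 1 with a median of 0.85 and 7 below 0 in Exp 2 with a median of -0.83, and 0 passed the joint test. This list was put together after the values were seen and gets no test.

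Summed astrocyte markers followed the same libraries. The 8 transporters summed to 428.5 and 575.3 CPM in the midbrain and 520.8 and 180.7 CPM in the Exp 1 striatum, and to 259.9 and 261.8 against 644.0 and 184.5 CPM in Exp 2. The 10 astrocyte markers, which hold Slc1a2 and Slc1a3 but no member, summed to 604 and 909 CPM against 856 and 251 CPM, and to 516 and 585 against 1759 and 511 CPM. Both sums were lowest in Str replicate 2 of Exp 1 and highest in Str replicate 1 of Exp 2. Without Str replicate 2 of Exp 1, the change of Slc4a4 in that experiment went from 1.604 to -0.16. Without Str replicate 1 of Exp 2, that of Slc7a10 in that experiment went from -1.41 to 0.24. Other cell types also differed between the striatum libraries. Oligodendrocyte markers summed to 12060 and 7326 CPM in replicates 1 and 2 of Exp 1, and to 12050 and 6004 CPM in replicates 1 and 3 of Exp 2. Markers of fibroblasts and meninges summed to 2063 and 1388 CPM, and to 3122 and 835 CPM. The astrocyte marker Slc1a3 was not low in Str replicate 2 of Exp 1 (68.7 and 68.2 CPM in the 2 libraries). The part of RNA from astrocytes or these other cells in these members was not tested.

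**Figure D4:**
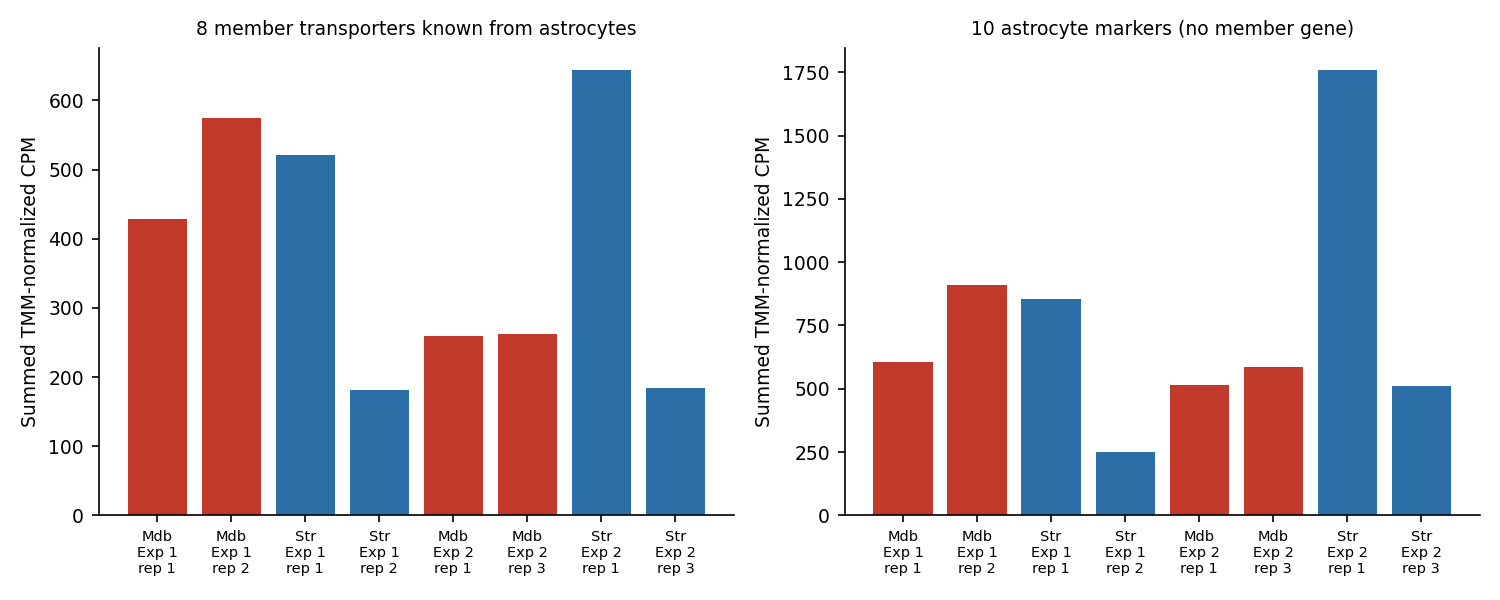
Summed TMM-normalized CPM (y axis, from 0) of 8 member transporters also known from astrocytes (left) and of 10 astrocyte markers (right) in the 8 assigned libraries, midbrain in red and striatum in blue. Both sums were lowest in Str replicate 2 of Exp 1 (180.7 and 251 CPM) and highest in Str replicate 1 of Exp 2 (644.0 and 1759 CPM).

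**Figure D5:**
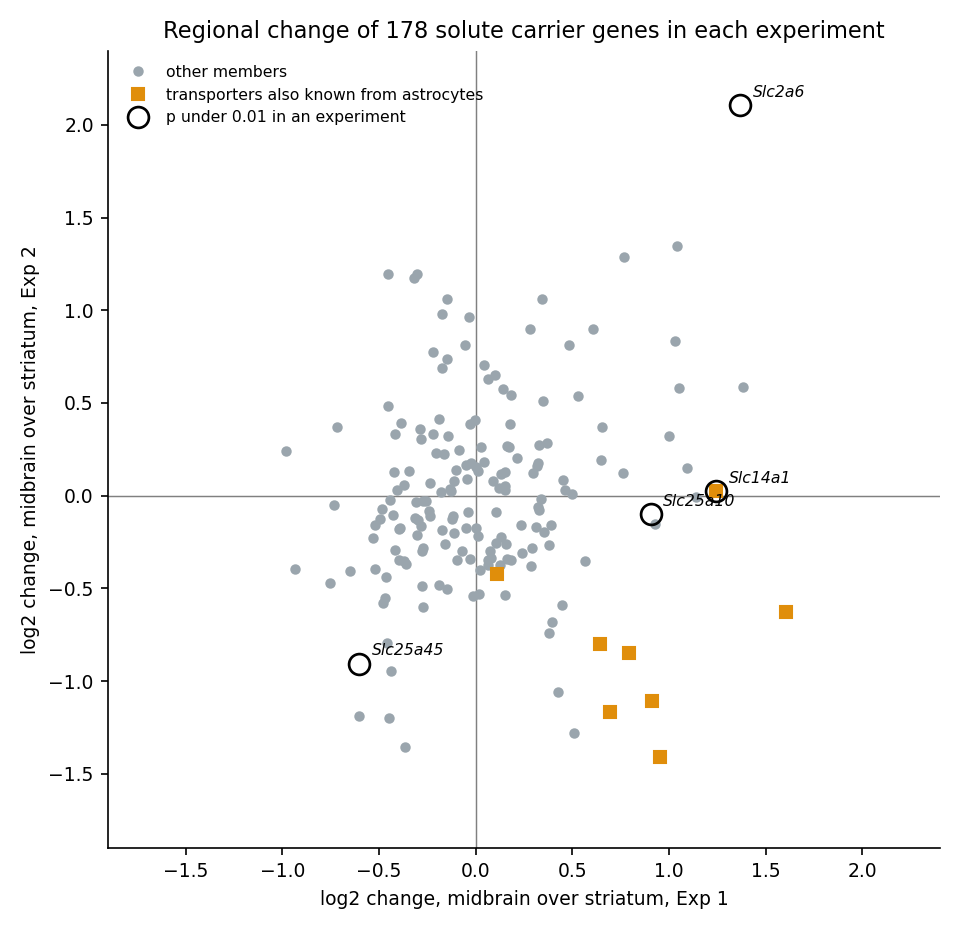
Log2 change of midbrain over striatum in Exp 1 (x axis) and Exp 2 (y axis) for the 178 members, with 1 point per gene, orange squares for transporters also known from astrocytes and rings for genes with p under 0.01 in an experiment. Slc2a6 lies at 1.37 and 2.11, and 7 of the 8 squares lie to the right of 0 and below it.

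Genes around the limit and those left out by name complete the family. Just inside it were Slc30a10 and Slc36a4, with 22 counts in their lowest pilot library, and just outside Slc25a15 and Slc25a14, with 19. Slc25a15, the mitochondrial ornithine carrier, had 3.73 ± 0.75 CPM in the midbrain against 8.96 ± 0.94 CPM in the striatum of Exp 1 and 5.31 ± 1.56 against 7.63 ± 3.19 CPM in Exp 2, and Slc25a14 had 3.88 ± 0.72 against 5.30 ± 0.56 CPM and 3.65 ± 0.87 against 8.14 ± 2.19 CPM (mean ± SD, n = 2). The further Slc genes under the limit were tested where they passed the filter of the joint fit. Of these, 1 of 54 was called higher in Exp 1 (Slc16a11), against 2.09% of all genes. In Exp 2 it was 1 of 37 (Slc25a24), against 2.88%, and in the joint fit 0 of 54, against 0.975%. Called lower were 0, against 0.548% in Exp 1, 0.593% in Exp 2 and 0.0854% jointly. The fructose transporter Slc2a5, a microglial marker, averaged 287.2 CPM, and the glutamate transporters Slc1a2 and Slc1a3, known from astrocytes, 162.8 and 76.6 CPM. Of these genes left out by name, Slc1a3 was called lower in the midbrain in Exp 2, with log2 changes of -0.71 in Exp 1 and -1.35 in Exp 2 and a joint change of -0.99 (adjusted p = 0.0782). Both Slc1a3 and Slc2a5, with a joint change of -0.63 (adjusted p = 0.153), lay below the striatum in all midbrain libraries of each experiment. The dopamine transporter Slc6a3, which marks dopaminergic neurons, had 1 count in 1 midbrain library of Exp 1 and 0 in the other 7.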

How the data were processed

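Bulk 3′ RNA libraries (MARS-seq) of CD11b-purified microglia were used. Per the study and the labels, the authors aligned reads to GRCm38 with STAR 2.5.3a after FastQC and counted them per Gencode M17 gene with featureCounts 1.6.0, and deposited whole-number counts that were not normalized, without strand and without reads on several genes. Symbols were matched for 53620 of 53715 gene identifiers. Groups came from the labels, and 2 libraries with contradictory labels were left out.

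Counts were analysed with limma 3.58.1 (voom, TMM factors of edgeR 4.0.16) in R 4.3.3, after dropping genes with fewer than 6 counts in over 50% of the libraries of a fit. Each experiment was fitted alone (unadjusted p under 0.01), and both jointly with the experiment as a covariate (Benjamini-Hochberg adjusted p under 0.05 over all genes tested). A floor of 3 counts corresponds to 0.354 to 5.21 CPM. DESeq2 1.42.0, the quasi-likelihood test of edgeR, library size scaling, other filters, thinned counts, a replicate block, each library left out, other member limits and the disputed libraries placed by either label were tried as alternatives. The script was tested on simulated data.

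Genes named were those called in an experiment, those not overlapping between regions, the most abundant of each class, those at the limit and those left out by name. The further genes named in the classes, and the transporters known from astrocytes, were chosen after their values were seen. Some members are counted in the totals but not reported here by name. The members and lists were chosen with earlier results of these data known.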

Additional observations from a re-analysis of the deposited data

Results flagged for a closer look

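The 2 libraries of Exp 2 with contradictory labels entered no comparison but held counts for most members. In the library titled midbrain replicate 2, 135 of the 178 members had at least 20 counts, and in the library titled striatum replicate 2, 172 had. Their totals were 1584013 and 5194739 counts.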

How the results depend on the processing

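Counts of called members were small, and what moved them between settings was not tested. In Exp 1, 3 members were higher and 0 lower in the midbrain. Without the filter on low counts these were 7 and 2, and with each library left out 0 to 24 and 0 to 20. In Exp 2, with 1 higher and 1 lower, they were 4 and 3 with the disputed libraries placed by file name, 0 and 3 with placement by title, 0 and 0 with thinned counts and 2 and 5 with the replicate block. Leaving out each library gave 0 to 9 and 0 to 5. A filter of 10 counts per library left 0 higher, with DESeq2 0 were lower, and with member limits of 10 and 50 counts 2 and 0 were higher. In the joint fit, with 0 in each direction, 2 were higher and 1 lower with DESeq2, 1 and 2 with placement by file name, and 1 higher with edgeR, without the filter and with the replicate block. Leaving out each library gave 0 to 1 higher. The 1 member higher in both experiments became 0 with at least 10 counts in every library, placement by title, thinned counts and the limit of 50, and the range was 0 to 1 in each direction when each library was left out. An unadjusted p under 0.05, chosen after seeing the data, gave 11 and 8 in Exp 1, 4 and 8 in Exp 2 and 15 and 11 jointly.

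Over all genes, the joint count of 149 was 554 with DESeq2, 237 with edgeR, 277 without the filter, 308 with the replicate block, 440 with placement by file name, 57 with at least 10 counts in every library, 0 with placement by title and 0 to 238 with each library left out (0 without Mdb replicate 1 of Exp 1 or Str replicate 1 of Exp 2). The count of 395 in Exp 1 was 822 without the filter and 108 to 2445 with each library left out. That of 468 in Exp 2 was 988 with the replicate block, 132 with placement by title, 204 with the filter of 10 counts and 393 to 1240 with each library left out. The median change of amino acid transporters was -0.15 with edgeR, and that of metal and heme transporters -0.056 with placement by file name and -0.054 to 0.065 with each library left out. With library size scaling the members summed to 11330 CPM in the midbrain of Exp 1 and 9341 CPM in that of Exp 2. On that scale each striatum library lay above each midbrain library of its experiment. The change of Slc4a4 in Exp 1 turned in sign, to -0.16, without Str replicate 2 (1.604 with all libraries, 2.93 without Str replicate 1). Deviations of the libraries that share a replicate number were close to uncorrelated over 14053 genes: -0.03 (Exp 1), 0.08 (Exp 2). Since each region had 2 libraries, both replicate numbers gave the same value, which leaves 1 correlation per experiment. Whether the replicate numbers pair the libraries by mouse therefore cannot be decided from these values. Str replicate 3 of Exp 2, with 575709 counts, limits what Exp 2 can show for low members.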

Other observations

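The libraries with contradictory labels gave these levels of the members called in an experiment. Their CPM used TMM factors computed over all 10 libraries, whereas the levels above used factors from the 8 assigned libraries. The library titled midbrain replicate 2 had 8.85 CPM of Slc2a6, 136.9 CPM of Slc25a45, 18.3 CPM of Slc25a10 and 5.90 CPM of Slc14a1. The library titled striatum replicate 2 had 18.5 CPM of Slc2a6, 93.1 CPM of Slc25a45, 33.2 CPM of Slc25a10 and 23.9 CPM of Slc14a1.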
